A study of Mus musculus with 22 samples.

Results

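Genes of the urea cycle and of arginine breakdown were followed in mouse embryonic stem cells that expressed DUX or altered forms of it. The 8 genes, taken by symbol from the 55487 gene rows of the deposited expression tables, were Nags, Cps1, Ass1, Asl, Arg1, Arg2, Oat and Odc1. They were chosen by the levels measured in these same libraries, led by the fall of Cps1 from mCherry to full-length DUX, so the contrast between full-length DUX and mCherry is given below as values with no test.

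In the urea cycle, nitrogen enters as carbamoyl phosphate, made in mitochondria by CPS1, and as aspartate, added by argininosuccinate synthase. Arginine is the product before the last step, in which arginase splits it into urea and ornithine. The complete cycle is a property of the liver. In other cells its enzymes are used singly, to recycle citrulline into arginine or to make ornithine for proline and polyamine synthesis, and pluripotent cells are known for high polyamine synthesis. DUX is the mouse homeobox protein that activates the gene program of the 2-cell embryo. Its C-terminal region holds a series of repeats followed by a short acidic tail.

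The RNA-seq study expressed mCherry-tagged constructs in Dux-/- mouse embryonic stem cells kept in 2iLIF, a medium with 2 kinase inhibitors and the cytokine LIF. All groups lacked endogenous Dux and all received 0.25 ug/mL doxycycline for 12 hours, beginning 24 hours after plating. The labels list 22 samples in 11 groups of 2, and 20 of these, in 10 groups, had columns in the deposited tables. The C3delt14 group was not analysed here.

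One table, called the chimera table here, held 7 groups of 2 libraries: mCherry alone, full-length DUX (FL), C1+14, C1C3a, C1C3b, C1C3c and C3+14. The other, the deletion table, held 4 groups of 2: FL, C12345delt14, deltC12345+14 and deltC12345delt14. In these names C and a digit stand for a repeat, 14 for the tail (written 14aa in 1 of the labels) and delt for its removal. The column names add 14aa to all 3 of C1C3a, C1C3b and C1C3c. The labels do not spell out where the parts of C1C3a, C1C3b and C1C3c were joined. They also do not say whether a line was 1 clone or whether the 2 libraries of a group came from separate cultures. The p-values below measure the spread between these libraries, which may be technical.

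The FL libraries were the same in both tables: their recovered reads differed at 0 genes. The tables were scaled separately, so levels are compared only within a table. Recovered totals were 21059953 to 32543856 reads per library in the chimera table and 27326760 to 40448890 in the deletion table. One read was worth 0.620 to 1.81 normalised reads, the unit used for all levels here. Marker genes matched the labelled cell type. The summed level of 10 stem cell markers was 49934 to 111250 in the chimera table, with 0 of them at or under 3 reads in a group. Hepatocyte markers summed to 18.1 to 168, and 4 to 8 of those 10 genes were at or under 3 reads per library, depending on the group.

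Some libraries stood apart. Processed pseudogenes took 4.48% and 4.55% of the reads in the mCherry libraries and between 6.14% and 8.78% in the other 12 libraries of the chimera table. Among the deletion libraries the share was 4.98% in deltC12345+14 replicate 2 and 5.14% in deltC12345delt14 replicate 1, against 7.45% to 8.76% in the others. The part of this share in the results was not tested. Calls that were lost without those deletion libraries are named where they occur.

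Of the 8 members, 7 were tested in each table, at a filter of 10 normalised reads in at least 2 libraries. Nags missed it in the chimera table and Arg1 in the deletion table. Arg1 passed in the chimera table only through C3+14 replicate 2 and C1C3b replicate 1. Arg2 passed in the deletion table only through the FL and C12345delt14 libraries. In the chimera table it passed through 10 libraries, none of them of C1+14 or mCherry. A gene that passed only through its high group had to differ, and such calls support nothing here. A gene was called where limma gave a Benjamini-Hochberg adjusted p under 0.05 over all genes of the table and a log2 difference of at least 1. Differences are on the scale of log2(normalised reads + 1), which understates changes of low genes. With 2 libraries against 2, an exact permutation test of 1 gene cannot go below 0.333, so none was used.

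Cps1 encodes carbamoyl phosphate synthetase 1, the mitochondrial enzyme that commits ammonia to the cycle. The gene (ENSMUSG00000025991) lies at chr1:67123026-67231259 on the plus strand in GRCm38, GENCODE M21, and 0% of its 50-base exon sequences occur in another gene. In the mCherry libraries Cps1 stood at 3812 and 3813 normalised reads. Under FL it stood at 38.3 and 16.7, from 26 and 14 reads. Every fold and ratio of levels below is summed reads over summed size factors, the size factor being 1 over the worth of 1 read. By this measure FL was 145-fold lower than mCherry.

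Every other construct in the chimera table also had less Cps1 than mCherry. C1C3b had 733 and 663 normalised reads. C1C3c had 237 and 622, a wide pair. C1+14 had 250 and 194. The C3+14 libraries stood at 101 and 100, those of C1C3a at 49.8 and 39.6. The highest construct library, at 733, lay far below both mCherry libraries, and the fold below mCherry ran from 5.45 in C1C3b to 84.1 in C1C3a. All these folds rest on the same 2 mCherry libraries, which also stood apart at other genes. Of the 21584 genes tested in the chimera table, 38 were at least 4-fold higher in both mCherry libraries than in every other library, and 170 were at least 4-fold lower. Cps1 was the only member among them. Hepatocytes are the main known source of Cps1. Their 10 markers summed to 28.3 and 42.9 in mCherry, with Alb, G6pc, Hpd, Otc and Ttr at 0. Apob had 17.2 to 22.4 there and Tat 8.58 to 16.5. In FL the sum was 42.9 and 47.1, with Apob at 13.3 to 14.3 and Tat at 11.8 to 15.5. It was 122 and 168 in C3+14, where Tat alone had 82.1 to 87.5, and 92.1 to 153 in C1C3b. In bulk RNA, fewer cells expressing a gene and less RNA per cell cannot be told apart.

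**Figure D1:**
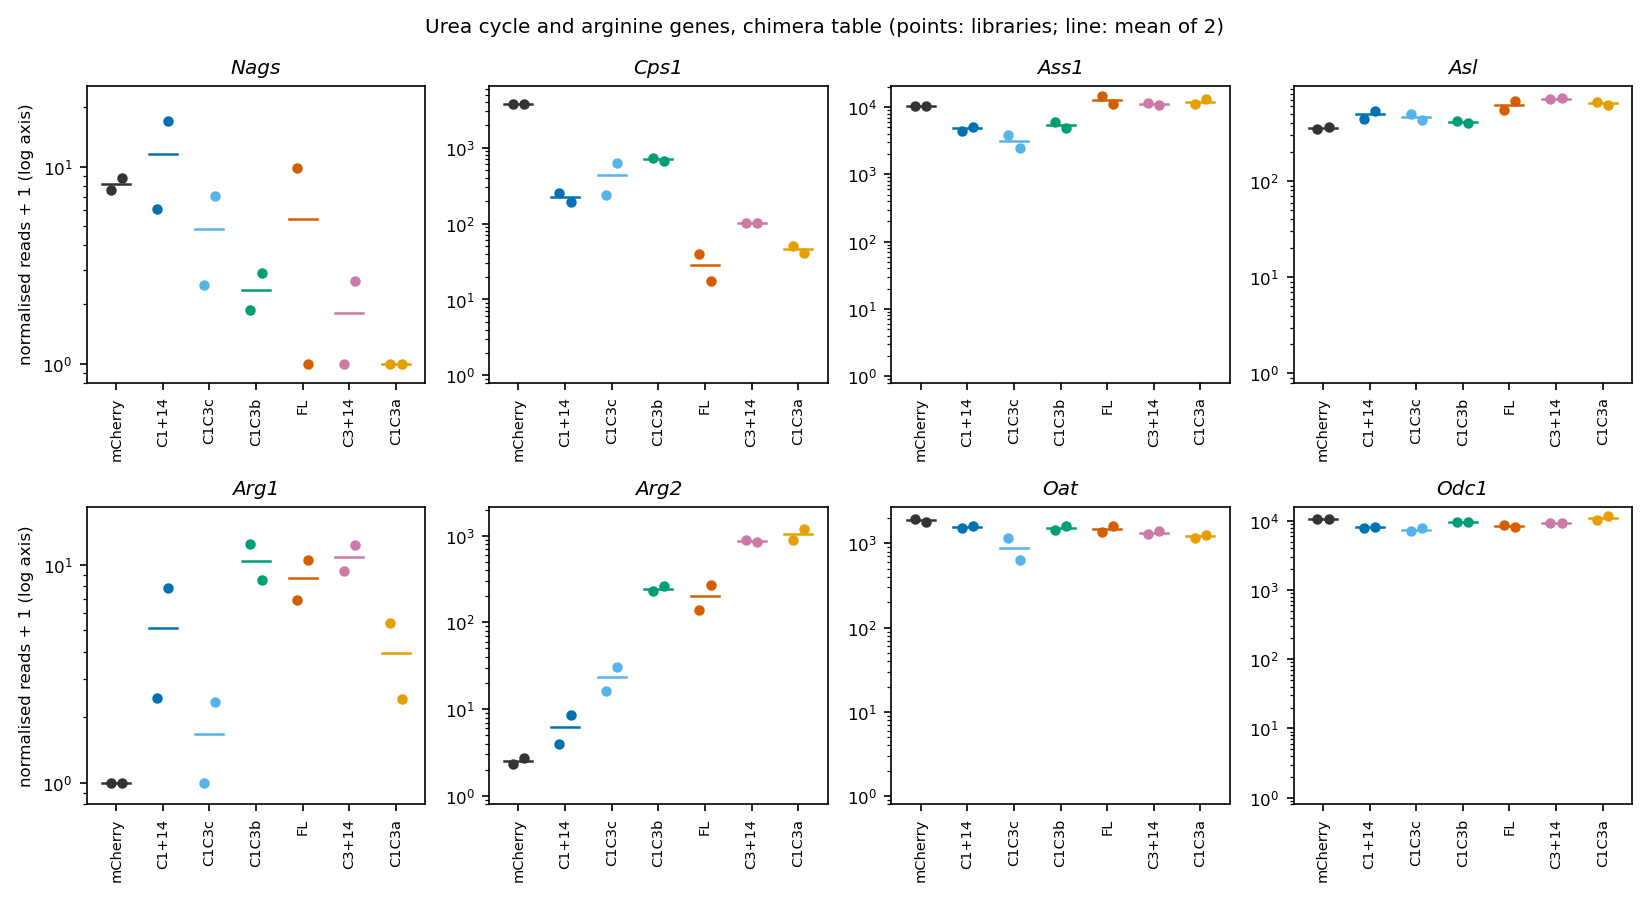
Normalised reads plus 1 (log axis) of the 8 genes in the 14 libraries of the chimera table; points are libraries and lines the mean of the 2 libraries of a group. Cps1 is highest in mCherry, at 3812 and 3813, and lowest in FL, while Arg2 runs the other way, from 1.32 in mCherry to 1188 in C1C3a.

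The DUX constructs also differed among themselves in Cps1. C1C3b exceeded C1+14, with a log2 difference of 1.66 (SE 0.40, limma adjusted p = 0.00455). C1C3a was below C1+14, with a log2 difference of -2.28 (SE 0.40, limma adjusted p = 3.08e-04). C1C3b and C1C3a were 3.94 apart (SE 0.40, limma adjusted p = 4.28e-06), and C1C3b had 15.4 times the Cps1 level of C1C3a (95% interval from the read counts 12.2 to 19.8). Such counting intervals cover counting error only, since the reads carried no molecular identifiers. C3+14 was lower than C1+14 by a log2 difference of -1.12 (limma adjusted p = 0.0266). That call was lost with no filter on low values (0.0536) and when C1+14 replicate 1, C3+14 replicate 1 or C3+14 replicate 2 was left out (adjusted p up to 0.129). The log2 differences from FL were 1.95 in C3+14, 4.73 in C1C3b and 0.79 in C1C3a. They are given with no test, because the low FL level is part of what chose the gene.

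The order of the group means was mCherry, C1C3b, C1C3c, C1+14, C3+14, C1C3a and FL. C1C3c and C1+14 overlapped and differed by 0.80 (95% interval -0.06 to 1.66). The other neighbours in this order did not overlap. C1C3a against C3+14, at -1.16, did not pass the test (limma adjusted p = 0.0534), but Cps1 was called there with a pseudocount of 8, under quantile normalisation, in DESeq2 and in the fit of those 2 groups alone.

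In the deletion table Cps1 was low in all 8 libraries, which spanned 20.8 to 58.2 normalised reads. FL had 47.1 and 20.8, C12345delt14 had 53.7 and 52.5, deltC12345+14 had 47.7 and 58.2, and deltC12345delt14 had 26.3 and 24.0. The construct without repeats and without tail thus had the lowest mean, and its libraries lay within the FL range. Its log2 difference from FL was -0.31 and its ratio to FL 0.769. For scale, within the chimera table mCherry alone exceeded FL 145-fold. The libraries of low pseudogene share stood at 58.2 (deltC12345+14 replicate 2) and 26.3 (deltC12345delt14 replicate 1), beside 47.7 and 24.0 in their partners.

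C12345delt14 had more Cps1 than deltC12345delt14, at a log2 difference of 1.05 (interval -0.04 to 2.14, limma adjusted p = 0.119), and deltC12345+14 exceeded deltC12345delt14 by 1.04 (interval -0.05 to 2.13). Neither passed the test.

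**Figure D2:**
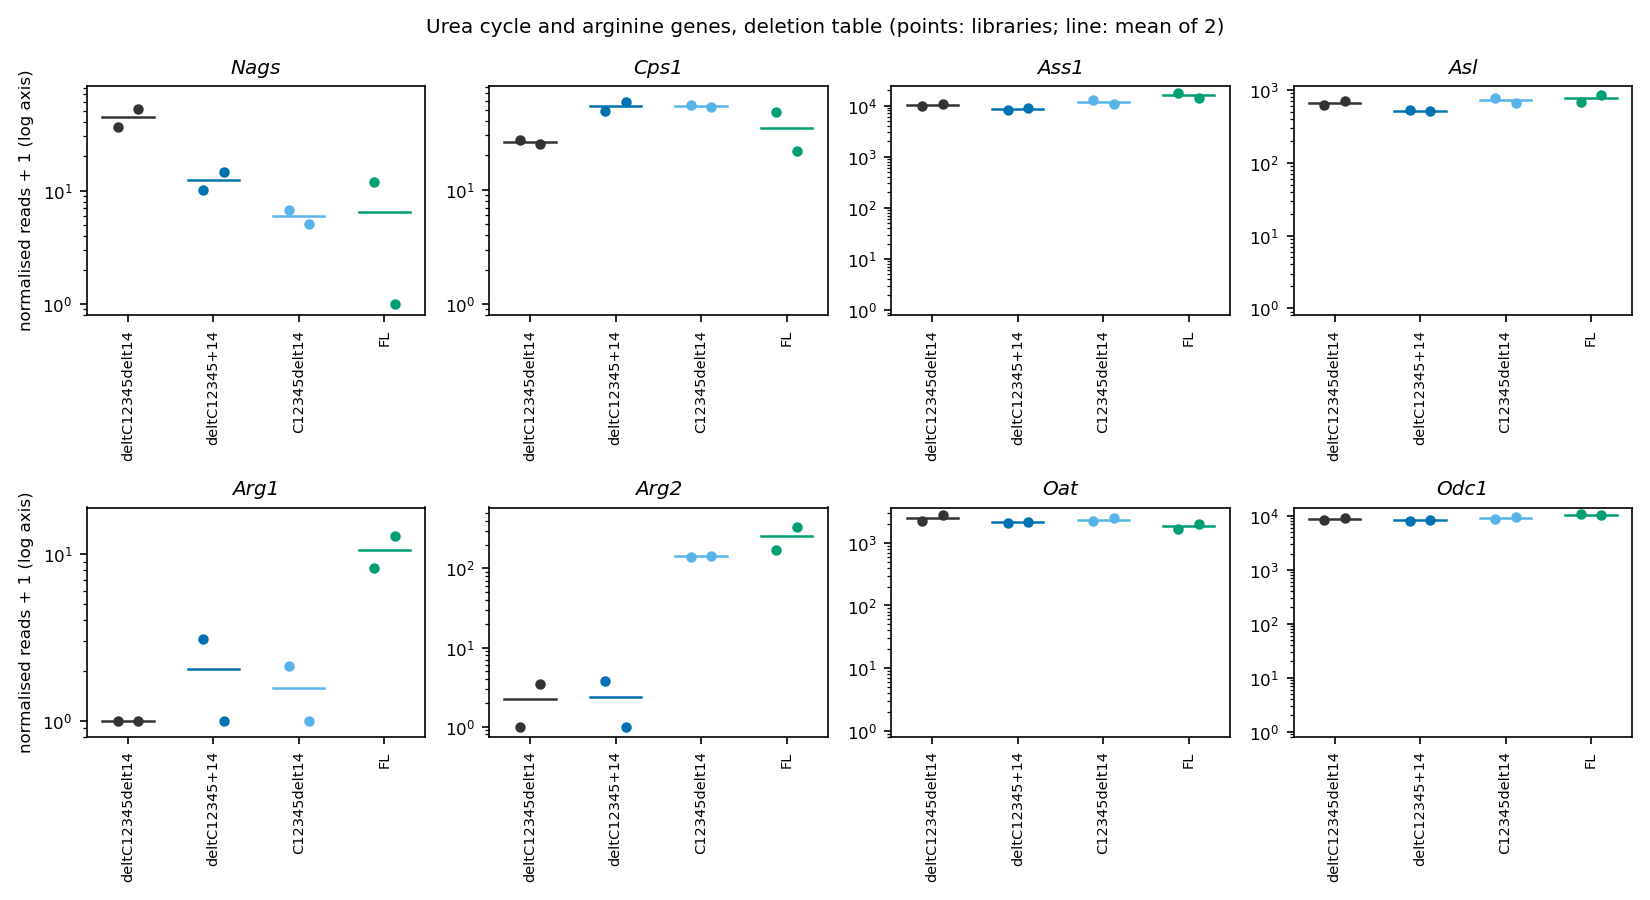
Normalised reads plus 1 (log axis) of the same 8 genes in the 8 libraries of the deletion table; points are libraries and lines the mean of 2. Cps1 stays between 20.8 and 58.2 in all libraries, Arg2 is high only in FL and C12345delt14, and Nags is highest in deltC12345delt14, at 35.3 and 51.4.

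The 5 protein-coding genes whose pattern over the 7 groups of the chimera table was nearest to that of Cps1 were Gm21060, Gm12258, A630089N07Rik, Mob3c and 4930548H24Rik, among 15637 candidates. Likeness was the root-mean-square difference of group means of log2(normalised reads + 1), each gene centred on its own mean. It was 0.63 for Gm21060 and 0.99 for 4930548H24Rik. Gm12258, at 0.69, had 1261 and 1276 normalised reads in mCherry, 16.2 and 27.4 in FL, and 109 and 148 in C1C3b. Mob3c, a kinase activator of the MOB family, had 408 and 418 in mCherry and between 1.47 and 157 elsewhere. All 5 genes, like Cps1, were highest in mCherry, which their choice by likeness to Cps1 favours. Unlike Cps1, none of the 5 had both C1C3b libraries above both C1+14 libraries. In 4 of them the libraries overlapped, and in Mob3c the C1C3b libraries, at 47.4 and 44.1, were below those of C1+14, at 157 and 96.7.

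**Figure D3:**
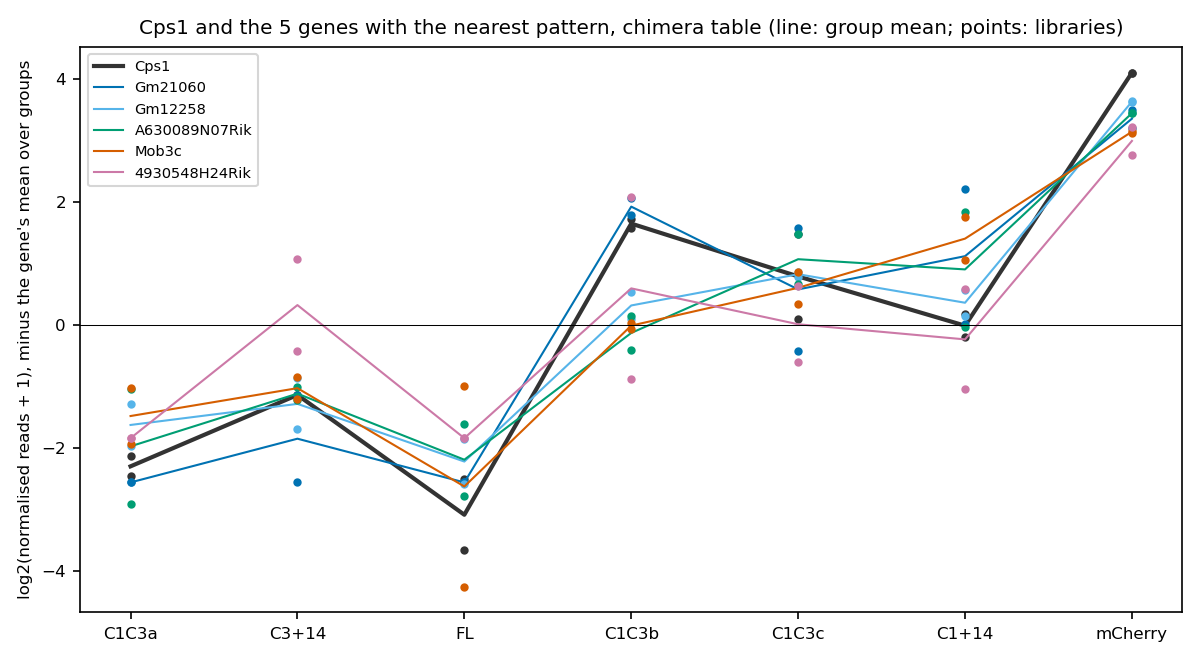
Log2(normalised reads + 1) of Cps1 and the 5 genes of nearest pattern, each minus its mean over the 7 groups of the chimera table; lines join group means and points are libraries. All 6 genes peak in mCherry, which the choice of the 5 by likeness to Cps1 favours. C1C3b, where Cps1 has 733 and 663 normalised reads, is the second highest group for Cps1.

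Nags encodes N-acetylglutamate synthase, which makes the activator that CPS1 requires. It was scarce throughout. In the chimera table it had 10 and 9 reads in mCherry, 7 and 26 in C1+14, 2 and 9 in C1C3c, 6 and 0 in FL, and at most 2 in any library of C3+14, C1C3a or C1C3b. It was not tested there. In the deletion table it had 10.9 and 0 normalised reads in FL, 5.72 and 4.10 in C12345delt14, 9.12 and 13.6 in deltC12345+14, and 35.3 and 51.4 in deltC12345delt14. Both deltC12345delt14 libraries lay above all others of that table. The log2 difference from FL was 3.66 (SE 1.04, limma adjusted p = 0.0193). The call was lost when either deltC12345delt14 library was left out, when only those 2 groups were fitted and without the low-share libraries. The difference between deltC12345+14 and deltC12345delt14 did not pass (-1.84, interval -4.25 to 0.57). Nor did that between C12345delt14 and deltC12345delt14 (-2.90, limma adjusted p = 0.0665), which was called with a pseudocount of 8, under quantile normalisation, in edgeR, in DESeq2 and in the fit of those 2 groups alone.

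Ass1 encodes argininosuccinate synthase, which joins citrulline and aspartate, and Asl encodes argininosuccinate lyase, which releases arginine from the product. Ass1 (chr2:31470207-31520672, plus strand) was the most abundant member per length, at a mean of 4273 normalised reads per kilobase of exon in mCherry. Odc1 followed at 3113, then Oat at 794, Cps1 at 686 and Asl at 73.7. Nags stood at 2.52 and Arg2 at 1.06 per kilobase, and Arg1 had 0 reads. RefSeq promoter entries matched 4 of the 8 members, Ass1, Nags, Oat and Odc1. The 250 bases before the start of Ass1, at chr2:31470020-31470269 in GRCm38.p6, plus strand, are shown because Ass1, of the members with an entry, was called in the most comparisons. Those of Odc1, at chr12:17544623-17544872, plus strand, are shown because Odc1 was called in no comparison. The single CACGTG, the letters bound by many basic helix-loop-helix factors, is in capitals in Ass1, 36 bases before the start. The start is that of the RefSeq entry, and for Ass1 it lies downstream of the GENCODE gene start given above. The end of the Ass1 stretch, CACGTG included, is thus inside the gene as given.
Ass1: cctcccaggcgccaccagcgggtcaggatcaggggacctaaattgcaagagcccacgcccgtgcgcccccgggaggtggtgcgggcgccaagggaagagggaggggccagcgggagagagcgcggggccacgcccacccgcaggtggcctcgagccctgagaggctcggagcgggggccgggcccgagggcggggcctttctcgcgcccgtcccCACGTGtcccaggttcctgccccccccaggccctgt
Odc1: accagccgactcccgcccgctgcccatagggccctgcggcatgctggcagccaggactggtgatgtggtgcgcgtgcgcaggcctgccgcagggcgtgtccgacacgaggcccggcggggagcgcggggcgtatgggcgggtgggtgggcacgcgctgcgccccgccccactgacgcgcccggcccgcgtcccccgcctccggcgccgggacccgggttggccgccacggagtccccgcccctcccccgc
CACGTG is its own reverse complement. In windows of 300 bases, 250 before to 50 after each start, 7.15% of 32851 RefSeq promoters hold it.

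On the deposited scaling, Ass1 fell into a high and a low set of groups. FL had 14498 and 11192 normalised reads, C1C3a 11052 and 13137, C3+14 11415 and 10827, and mCherry 10405 and 10227. C1C3b had 5929 and 4925, C1+14 4485 and 5131, and C1C3c 3790 and 2463. The highest library of the low set, at 5929, lay below the lowest of the high set, at 10227. Ass1 was higher in C3+14 than in C1+14 by 1.21 (SE 0.19, limma adjusted p = 9.54e-05) and in C1C3a by 1.33 (SE 0.19, 4.72e-05). It was lower in C1C3b than in C1C3a, with a log2 difference of -1.16 (limma adjusted p = 1.90e-04). Against mCherry it was lower in C1C3c, at -1.76 (limma adjusted p = 1.04e-05), and in C1+14, at -1.10 (7.81e-04), while C1C3b missed the fold at -0.93.

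The scale of the Ass1 differences depended on the normalisation. Before scaling, FL had 9840 and 9402 Ass1 reads, of totals of 32168300 and 31391063. C1+14 had 6136 and 8275, of 24051548 and 28635782, and mCherry 15770 and 11922, of 31203170 and 23949774. Quantile normalisation moved the median log2 difference of all genes by -0.41 for C3+14 against C1+14 and by -0.40 for C1C3a against C1+14. Under it the Ass1 differences kept their sign at 0.51 and 0.44 (limma adjusted p = 0.0208 and 0.0437) and missed the fold of the call. Those of C1C3b from C1C3a (-0.49), of C1+14 from mCherry (-0.99) and of C1C3b from FL also missed it. The difference of C1C3c from mCherry was called in all 11 alternatives. Ass1 shares 38.6% of its 50-base exon sequences with the pseudogene Gm5424, which had 181 to 1003 normalised reads and was also lower in C1C3b, C1+14 and C1C3c than in the other groups, so its reads could be split between the copies. Across the deletion libraries Ass1 ranged from 8292 to 17831 and was called in no comparison.

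Asl varied little, from 345 to 724 normalised reads over the chimera table. It was lowest in mCherry, at 345 and 367, and highest in C3+14, at 710 and 724. That difference, 1.01 (limma adjusted p = 9.18e-05), was the only call for Asl, and it was lost in 5 of 11 alternatives, among them those without C3+14 replicate 2 or mCherry replicate 1, with log2 differences of 0.95 to 1.05 across them. None of its differences in the deletion table was called.

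Arg2 encodes the mitochondrial arginase, which provides ornithine outside the liver cycle, and Arg1 the cytosolic arginase of the liver. Arg2 (ENSMUSG00000021125) lies at chr12:79130777-79156301 on the plus strand. It was nearly silent in mCherry, at 1.32 and 1.72 normalised reads (2 reads in each library). C1+14 had 2.92 and 7.44, from 4 and 12 reads, and C1C3c had 15.1 and 29.8. FL had 137 and 269, C1C3b 229 and 259, C3+14 886 and 845, and C1C3a 893 and 1188. FL and C1C3b overlapped, and the other neighbours in the order of means did not.

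Against C1+14, Arg2 was higher in C3+14 by 7.23, in C1C3a by 7.49 and in C1C3b by 5.41. These are given with no test, because Arg2 passed the filter of the chimera table only through groups above C1+14. As a ratio of levels C3+14 exceeded C1+14 161-fold, with a counting interval of 98.8 to 283. C1C3c exceeded C1+14 by 1.95, and its call supports nothing for the same reason. That call was also lost when C1C3c replicate 2 or C1+14 replicate 1 was left out. It was lost too when only those 2 groups were fitted (limma adjusted p = 0.255). C3+14 and C1C3a, which differed from each other by 0.25 (interval -0.68 to 1.18), both exceeded FL. The log2 differences from FL were 2.17 (limma adjusted p = 0.00146) and 2.42 (0.00132). C1C3b lay below C1C3a by a log2 difference of -2.08 (0.00124), a ratio of 0.238. C1+14 had 3.60 times the Arg2 level of mCherry (counting interval 1.16 to 14.8), and its call over mCherry (limma adjusted p = 0.0492) was lost in 9 of 11 alternatives.

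In the deletion table Arg2 was high in the 2 constructs that kept all repeats. FL had 169 and 337 normalised reads and C12345delt14 had 137 and 144. DeltC12345+14 had 2.81 and 0, and deltC12345delt14 had 0 and 2.49, from 4 and 3 reads in all. The summed reads were 296 in C12345delt14 and 3 in deltC12345delt14, a log2 difference of 6.25. It is given with no test, because Arg2 passed the filter only through its high groups. Removal of the tail alone gave -0.76 against FL (interval -2.68 to 1.17).

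Vti1b and Gm48780 overlap Arg2 on the opposite strand and share 21.2% of its 50-base exon sequences with it. The library kit marks strand, but the strand setting of the counting is not given in the sources used here. Vti1b had 674 to 992 normalised reads in every library of the chimera table. It had 928 and 992 in mCherry, where Arg2 had 2 reads per library. Gm48780 had at most 7 reads.

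Enterocytes, absorptive cells of the gut, were among the other cell types checked. Their 10 markers summed to 71.2 and 71.3 in mCherry and 61.4 to 123 in C1+14. The sum was 886 to 944 in C3+14, 713 to 733 in C1C3a and 985 to 1173 in C1C3b. Most of that sum was Muc13, a membrane mucin, at 1064 at most in a C1C3b library and at most 24.8 in C1+14. Apoa4 was at 0 in every library of the chimera table and Alpi in all groups but C1C3b. Among the deletion libraries the sum was 418 to 935 in FL and 366 to 786 in C12345delt14, against 87.0 to 125 in the constructs without repeats. The part of these markers in the Arg2 result was not tested.

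Arg1 was barely detected. The 0 reads in both mCherry libraries allow up to 3 each. FL had 4 and 8 reads, C3+14 had 5 and 7, C1C3b had 13 and 8, C1+14 had 2 and 11, C1C3a had 4 and 1, and C1C3c had 0 and 2. The other 6 libraries of the deletion table had 0 to 3 reads.

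Oat encodes ornithine aminotransferase, which links ornithine to glutamate and proline, and Odc1 encodes ornithine decarboxylase, the first enzyme of polyamine synthesis. Oat ranged from 631 to 1942 normalised reads in the chimera table. It was highest in mCherry, at 1942 and 1805, and lowest in C1C3c, at 1146 and 631. The C1C3c difference from mCherry, -1.14 (SE 0.21, limma adjusted p = 6.88e-04), was its only call. It was lost without C1C3c replicate 2 and in the fit of those 2 groups alone.

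Odc1 was abundant everywhere, with 7051 to 11682 normalised reads among chimera libraries and 8042 to 10845 among deletion libraries. It was called in no comparison. Its largest difference was that of C1C3c from mCherry, at -0.52 (interval -0.73 to -0.30). It shares 24.3% of its 50-base exon sequences with other loci, led by processed pseudogenes, so part of its reads could belong to those copies.

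The counts of members called are set beside the share of all genes called, and with 7 tested members nothing is read from them. In C3+14 against C1+14, 3 of the 7 tested members were called (Cps1 lower, Ass1 and Arg2 higher), against 44.6% of all 21584 genes. In C1C3a against C1+14 it was the same 3 genes, in the same directions, against 40.8%. C1C3b against C1+14 had 2 (Cps1 and Arg2, both higher), against 28.9%. C1C3c against C1+14 had 1 (Arg2 higher), against 7.83%. Arg2 passed the filter only through groups above C1+14, so its part in these counts supports nothing. Without it the C1C3b count holds only Cps1 and the C1C3c count no member. The median log2 difference of the tested members was 0.55 in C3+14 against C1+14 and that of all genes 0.12.

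Against FL, whose libraries these comparisons share, 2 of 7 members were called in C3+14 (background 26.3%), 1 in C1C3a (15.6%) and 2 in C1C3b (43%). Between chimeras, C1C3b differed from C1C3a at 3 members (35.6%) and C1C3a from C3+14 at 0 by limma (14.9%). In the latter, Arg1, Cps1 and Odc1 were at an unadjusted p under 0.05 and 1 member was called by DESeq2. Arg1 passed the filter only through C3+14 replicate 2 and C1C3b replicate 1, so its p there supports nothing. Against mCherry, C1+14 had 4 members called (18.3%), C1C3c had 4 (28.8%), C1C3b had 3 (44.7%), C1C3a had 3 (46.4%) and C3+14 had 4 (47.3%). The mCherry libraries are common to these 5 comparisons, and Arg1, which rests on a few reads, is in every one of these counts but that of C1C3c. All 5 counts also hold Cps1, whose mCherry level is part of what chose the genes, so nothing is read from them. The counts against FL for C3+14 and C1C3b hold Cps1 too. FL against mCherry, the contrast behind the choice of the genes, had a background of 44.2%.

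In the deletion table C12345delt14 differed from FL at 0 of 7 members. At an unadjusted p under 0.05 that was Ass1 and Oat, with log2 differences of -0.42 and 0.37. The background there was 0.958%. DeltC12345+14 differed from FL at 1 member (Arg2 lower, background 38.4%) and deltC12345delt14 at 2 (Arg2 lower and Nags higher, 39.1%). C12345delt14 differed from deltC12345delt14 at 1 member, Arg2 (22%). Arg2 had to differ in these 3 comparisons, since it passed the filter only through its high groups. Without it they hold only Nags, in deltC12345delt14 against FL. DeltC12345+14 differed from deltC12345delt14 at 0 members, and limma called 0 of 19833 genes in that comparison, with 543 at an unadjusted p under 0.05 and at most 7 called by any alternative.

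**Figure D4:**
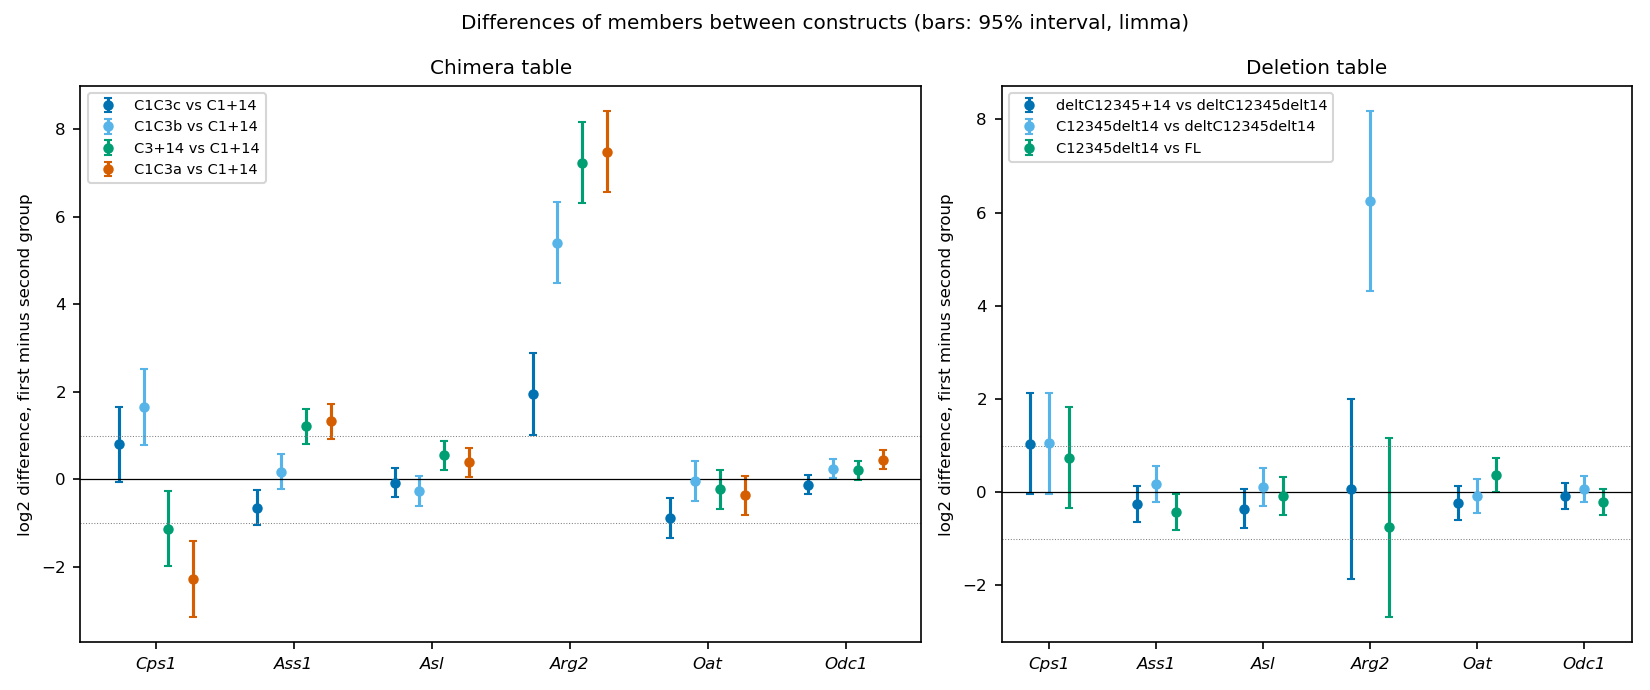
Log2 differences of 6 members between constructs with their 95% intervals from limma, against C1+14 in the chimera table (left) and in 3 comparisons of the deletion table (right); dotted lines mark a difference of 1 in either direction. Arg2 has the largest differences, 7.49 for C1C3a against C1+14 and 6.25 for C12345delt14 against deltC12345delt14, and Odc1 lies within 0.52 of 0. The Arg2 differences from C1+14 and the 6.25 are no test, nor are their intervals. Arg2 passed the filter of the chimera table only through groups above C1+14, and that of the deletion table only through its high groups.

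The neighbouring steps were read from 49 other genes in 6 lists by role, of which 45 were tested in each table. In C3+14 against C1+14, 3 were higher and 8 lower. C1C3a had 6 higher and 7 lower, C1C3b had 4 and 8, and C1C3c had 0 and 2, each against C1+14. C12345delt14 against deltC12345delt14 had 0 higher and 4 lower, and C12345delt14 against FL had 0. Against C1+14, the share of these genes called was 24.4% in C3+14 and 28.9% in C1C3a, below the 44.6% and 40.8% of all genes. It was 26.7% against 28.9% in C1C3b and 4.44% against 7.83% in C1C3c, close to the shares of all genes. For C12345delt14 against deltC12345delt14 the share of these genes called was 8.89% against 22%. Among the 4 genes lower there, Slc7a6 (-1.03) and Smox (-1.09) lost the call without the low-share libraries, at -1.02 and -1.06 (limma adjusted p = 0.0677 and 0.0641).

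Among 7 carriers of arginine and other cationic amino acids, all tested, 1 was higher and 2 lower in C3+14 against C1+14. Slc7a1, which encodes the main arginine importer CAT1, had 3265 and 3394 normalised reads in mCherry and 2278 and 2748 in C1+14. C1C3c had 1452 and 682, C1C3b had 421 and 491, C3+14 had 446 and 379, and C1C3a had 403 and 460. The difference was -2.60 in C3+14 (SE 0.26, limma adjusted p = 2.26e-06) and -2.54 in C1C3a (2.98e-06). In the deletion table Slc7a1 had 669 and 820 normalised reads in FL, 956 and 1352 in C12345delt14, and 4819 to 5945 in the 4 libraries without repeats. C12345delt14 lay below deltC12345delt14 by a log2 difference of -2.23 (limma adjusted p = 1.62e-04). These Slc7a1 calls held in every alternative run.

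Slc7a3, which encodes the related importer CAT3, was higher instead. It had 473 and 553 normalised reads in C1+14, 1674 and 1613 in C3+14, and 1370 and 1768 in C1C3a. The log2 differences were 1.68 and 1.60 (limma adjusted p = 1.42e-04 and 2.27e-04). Its level in mCherry, at 2318 and 2337, was above all of these. Slc7a7, the light chain of an arginine exporter, fell by 2.86 on the log2 scale in C3+14 and by 2.37 in C1C3a, from a C1+14 level of 217 and 128. Slc7a6, a related light chain, fell by 1.00 in C1C3a, a call lost without C1C3a replicate 2 or C1+14 replicate 2, with a pseudocount of 8 and in DESeq2.

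In the mitochondrial part of the pathway, where 5 of 7 listed genes were tested, Slc25a15 fell and 0 genes rose in either comparison with C1+14. Slc25a15 encodes the carrier that exchanges ornithine and citrulline across the inner membrane. It had 1031 and 1004 normalised reads in C1+14, 459 and 471 in C3+14, and 460 in each C1C3a library, with log2 differences of -1.13 and -1.14 (limma adjusted p = 6.52e-06 and 6.20e-06). Sirt5, a mitochondrial deacylase that acts on CPS1, fell by 1.04 in C3+14, a call lost with a pseudocount of 8 and without C3+14 replicate 2 or C1+14 replicate 2. Otc, the enzyme between Cps1 and Ass1, had at most 8 reads in a library and was not tested.

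In ornithine, proline and glutamate metabolism, Aldh4a1, an enzyme of proline breakdown, fell by 1.04 in C3+14. Aldh18a1, which starts proline and ornithine synthesis from glutamate, rose by 1.23 in C1C3a, and Prodh, which starts proline breakdown, rose by 1.14. The Aldh18a1 call was lost under quantile normalisation, in edgeR and without C1+14 replicate 1, and the Prodh call in edgeR and without C1C3a replicate 2. That of Aldh4a1 was lost without C3+14 replicate 2 or C1+14 replicate 2.

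Of 10 tested polyamine genes other than Odc1, 2 were higher and 1 lower in C3+14 against C1+14, with the same counts in C1C3a. That share, 30%, stands beside the 44.6% and 40.8% of all genes, and with 10 genes nothing is read from it. Smox, which oxidises spermine, had 368 and 365 normalised reads in C1+14, 129 and 71.3 in C3+14, and 122 and 110 in C1C3a. It fell by 1.92 in C3+14 (limma adjusted p = 2.16e-05) and by 1.65 in C1C3a (8.73e-05). Amd2 and Amd1, copies of S-adenosylmethionine decarboxylase, rose by 1.24 and 1.10 in C1C3a, but they share 85.7% and 78.1% of their 50-base exon sequences with other loci, so the split between them is uncertain. Amd2 means were 1112 normalised reads in C1+14, 1232 in FL, 2142 in mCherry and 2625 in C1C3a. Those of Amd1 were 2934, 2996, 5925 and 6330 in the same order. FL was thus near C1+14, and C1C3a was nearer to mCherry. Both calls were lost under quantile normalisation, at 0.89 for Amd2 and 0.40 for Amd1. That of Amd1 was also lost in edgeR and without C1C3a replicate 2. Azin1, an antizyme inhibitor that protects ornithine decarboxylase, rose by 1.09 in C3+14 and was not called under quantile normalisation or in edgeR.

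Among 8 tested genes of other arginine uses, Nos1, a nitric oxide synthase, fell by 1.42 in C3+14 (limma adjusted p = 7.42e-07), from 1124 to 419 normalised reads on average. Gamt, the last enzyme of creatine synthesis, rose by 1.23 in C1C3a (limma adjusted p = 0.0280), a call lost under quantile normalisation, in the fit of those 2 groups alone and without C1C3a replicate 1 or C1+14 replicate 1. In the list of cytosolic carbamoyl phosphate and pyrimidine synthesis, which holds Cad, the enzyme that makes carbamoyl phosphate outside the urea cycle, 0 of 5 genes were called in C3+14 or C1C3a against C1+14.

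**Figure D5:**
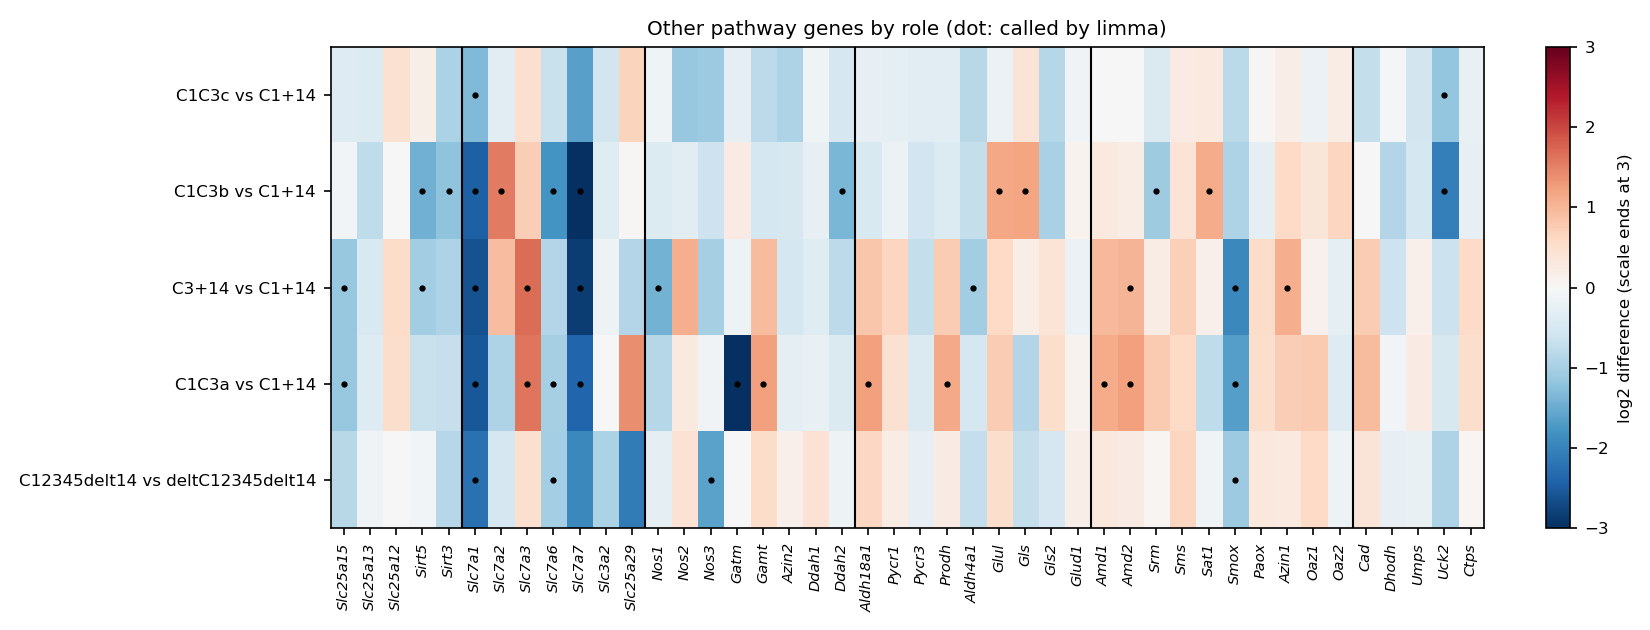
Log2 differences (colour, ends of the scale at 3) of the other pathway genes tested, less 1 that is not reported, in 5 comparisons; black lines separate the 6 role lists and a dot marks a limma call. Slc7a1 is lower with a dot in all 5 comparisons, and the last list, pyrimidine synthesis, has dots only at Uck2.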

How the data were processed

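Polyadenylated RNA was sequenced from 2 libraries per group. The authors deposited 2 tables of normalised read counts, a signal scaled by size factors, per the file headers and values. The submitters' processing notes name Trim Galore 0.5.0, FastQC, DESeq2 and mm10; the aligner, the counter and its strand setting are not given in the sources used here. Every value was a whole multiple of 1 read per library (100% within 0.001), so reads were recovered for ratios, edgeR and DESeq2. Gene symbols came from GENCODE M21, for 55227 of 55487 identifiers. Log2(normalised reads + 1) was tested with limma 3.58.1 (R 4.3.3) over all groups of a table, with Benjamini-Hochberg adjustment over 21584 or 19833 genes in 19 comparisons. On simulated data 199 and 200 of 200 changed genes were recovered. The effect size and spread of that simulation are not given here, so no power for these libraries is read from it. Alternatives were a pseudocount of 8, no filter, quantile normalisation, edgeR 4.0.16, DESeq2 1.42.0, fits of 2 groups, a replicate block and leaving out each library. The members, the role lists and the rule naming up to 3 of their genes per direction (called in C3+14 or C1C3a against C1+14, at least 50 normalised reads) were chosen with earlier results of these data known. One gene of the role lists is not reported here by name or in the heat map of the pathway, and the counts of its list are left out; it is included in the totals.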

Additional observations from a re-analysis of the deposited data

How the results depend on the processing

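No member's called log2 difference changed sign under any alternative. Of 433 such values, 44 lost the call. The number of members called moved in these cases, and smaller moves, of 1.5-fold or less, are not listed. C1+14 against mCherry gave 2 in place of 4 with a pseudocount of 8, with no filter, under quantile normalisation and with only the 2 groups fitted, and 2 to 4 with 1 library left out. C12345delt14 against deltC12345delt14 gave 2 in place of 1, Nags being the other, with a pseudocount of 8, quantile normalisation, edgeR, DESeq2 and only the 2 groups fitted. C1C3a against C3+14 gave 1, Cps1, in place of 0 with a pseudocount of 8, quantile normalisation, DESeq2 and only the 2 groups fitted. C1C3b against FL gave 1 under quantile normalisation. C1C3c against C1+14 gave 2 under quantile normalisation, 0 with only the 2 groups fitted, and 0 to 3 with 1 library left out. C1C3a against FL gave 1 to 2 with 1 library left out. DeltC12345+14 against FL gave 2 with no filter and 1 to 3 with 1 library left out. DeltC12345delt14 against FL gave 1 with only the 2 groups fitted, 1 to 2 with 1 library left out, and 1 without the libraries of low pseudogene share, an alternative chosen after seeing the data. The cause was not tested.

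Over all genes, C12345delt14 against FL had 190 calls and between 0 and 1392 with 1 library left out, 1294 in DESeq2 and 30 with no filter. C1C3c against C1+14 had 1690 calls and 0 with only the 2 groups fitted. C12345delt14 against deltC12345delt14 had 4365, and 2864 without the low-share libraries. Quantile normalisation moved the share of calls that were higher from 58.2% to 40.9% in C3+14 against C1+14, from 57.5% to 39.1% in C1C3a against C1+14 and from 57.3% to 39.2% in C12345delt14 against deltC12345delt14. Same-numbered libraries correlated at -0.10 to 0.05 over 21 pairs of groups in the chimera table, so replicate numbers did not pair the samples there. In the deletion table they correlated at -0.57 to 0.14 over 6 pairs. At -0.57, differences between replicates ran opposite by number in that pair of groups, which a block by replicate number cannot take up. What lay behind this value was not tested. The replicate block left C12345delt14 against FL with 45 calls and changed no member count; for example C3+14 against C1+14 had 3 members called with the block. Arg1 and, in the chimera table, Nags rest on too few reads to rank the constructs.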
